A study of Mus musculus with 8 samples.

Results

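Across 8 ATAC-seq libraries of mouse MLL-AF9 leukaemia cells, 49 open regions lay close together in 15 clusters, away from the ends of protein-coding genes. ATAC-seq maps open chromatin by letting a transposase cut and tag accessible DNA, and each library here was deposited as a list of peaks. The 49 regions were chosen by presence and position: overlapping peaks of the 8 lists, on the 19 autosomes and X, were joined into 32720 regions, and 9168 of these had a peak in all 8 lists. Of those, 2773 had their strongest summit 1 to 100 kb from the nearest end of a protein-coding gene and are called constitutive distal regions. Neighbours with gaps of at most 12500 bp were chained, and chains of at least 3 regions were kept. The other 2724 constitutive distal regions comprised 2488 single regions and 236 in pairs, while 6125 further regions present in all lists lay at gene ends. Each cluster is named here by the nearest protein-coding gene ends, which does not say which gene a region acts on.

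The cells were GFP-positive leukaemia cells from bone marrow of leukaemic mice, all carrying MLL-AF9 and a doxycycline-inducible TetO-Klf4 construct, with the cell line labelled C57BL/7. They were sorted at 0h, 6h, 12h and 24h, with 2 libraries at each time, to follow accessibility after Klf4 induction. Doxycycline exposure of the 0h cells is not given in the labels, nor is it said that libraries of 1 time came from different mice, so the spread between them may be technical. With 2 libraries against 2, the smallest two-sided exact permutation p is 0.333, so no difference between times was tested and non-overlap of libraries is given as a description.

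Clusters of open distal sites are often read as enhancer clusters, stretches where many transcription factors bind and raise the activity of genes of cell identity. Open chromatin is also found at short genes that make structural RNAs. Transfer RNA genes are read by RNA polymerase III from promoters inside the gene, whereas U2, a small nuclear RNA of the spliceosome, and U3, a small nucleolar RNA that acts in ribosomal RNA processing and is listed as snRNA in the annotation used, are read by RNA polymerase II. Such genes often lie in arrays of near-identical copies. KLF4 is a zinc-finger factor that binds GC-rich and CACCC elements.

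The clusters were small and fell into 3 kinds by what the RefSeq annotation (GRCm38.p6, the assembly of mm10) places under them. They lay on 9 chromosomes, 11 had 3 regions and 4 had 4, and their spans ran from 8.30 kb (Gm38821, chr6:51170575-51178871) to 29.5 kb (Tex14, chr11:87443222-87472745), with a median of 18.6 kb. Between 7.94% and 26.9% of a span was covered by its clustered regions. In 5 clusters, those at Fcgr3, Kif2c and Armh1, Trim41 and Trim7, Tex14, and Rdm1 and Arl4d, most regions overlapped a tRNA or snRNA gene. In 4 more, at Gm40011, 3110082I17Rik and Gpr146, Junb and Hook2, and Cbarp, Midn and Cirbp, at least 1 region covered an annotated RNA start, and none overlapped a small-RNA gene. The remaining 6 clusters, at Cebpb, Fosl2, Gm40363, Gm38821, Il17ra, and Rasip1 and Mamstr, held neither in any of their 19 regions. By region, 15 of the 49 held a small-RNA gene, 7 an RNA start without one, and 27 neither. The rule that chose the regions calls these chains enhancer clusters. No histone mark or reporter measurement was used here, so they are called clusters of open regions throughout, and enhancer activity was not tested.

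**Figure D1:**
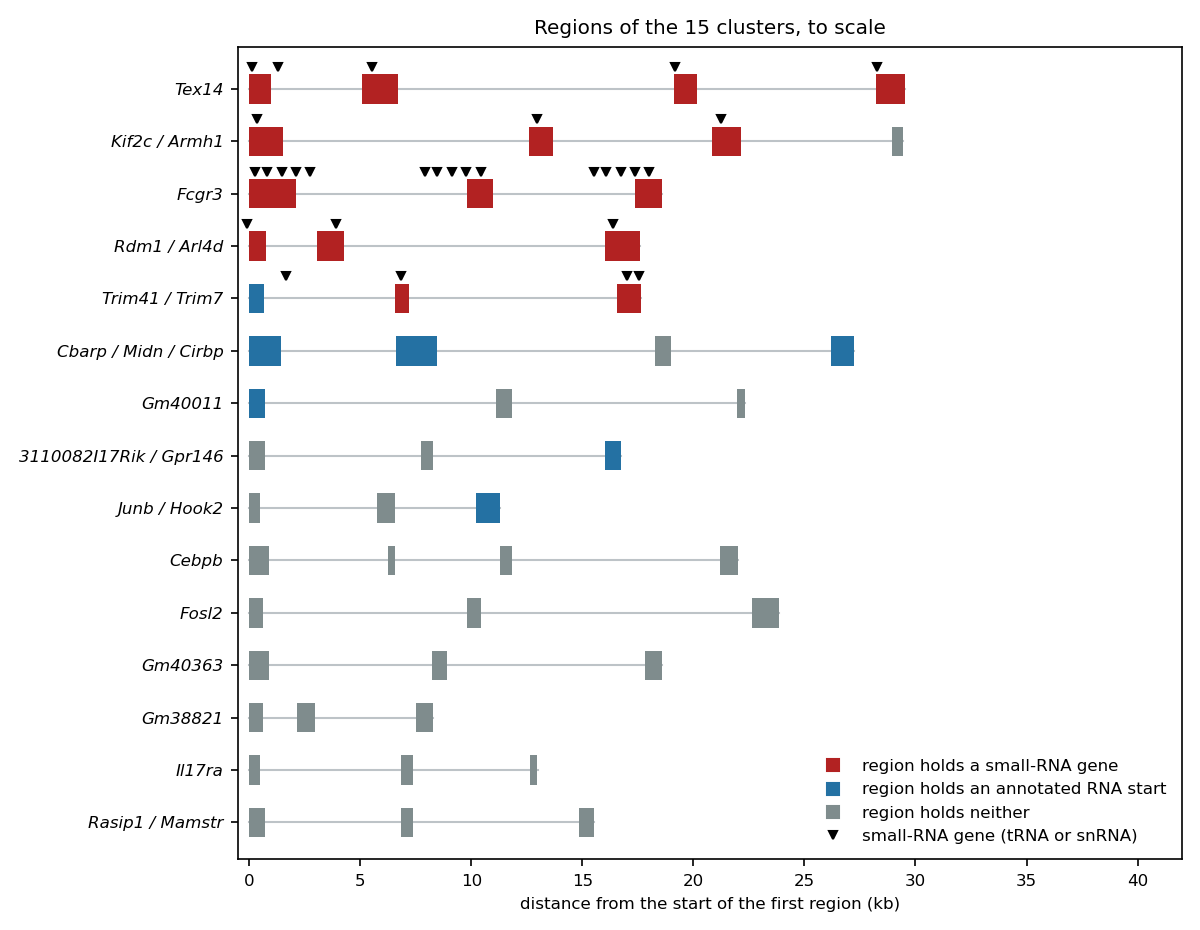
Map of the 15 clusters to scale, with distance from the start of the first region in kb on the x axis and 1 cluster per row. Boxes are clustered regions coloured by what they hold, and triangles are the 30 small-RNA genes of the spans. Small-RNA genes appear in the 5 top rows, and 20 of the 30 overlap a box.

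Reference sequence was at hand for the annotated starts and for miRNAs under the clusters. Windows from 250 bases before to 50 bases after a RefSeq start, in GRCm38.p6, were available for 11 starts inside 7 clustered regions. The starts of Gpr146, which encodes an orphan G-protein-coupled receptor (chr5:139380389-139380688, + strand), Hook2, a microtubule linker (chr8:84990373-84990672, + strand), Atp5d, a subunit of mitochondrial ATP synthase (chr10:80142065-80142364, + strand), Midn, which encodes midnolin (chr10:80149432-80149731, + strand), Cirbp, a cold-inducible RNA-binding protein (chr10:80167589-80167888, + strand), and Trim41, a ubiquitin ligase (chr11:48817342-48817641, - strand), are shown because they carry the annotated starts of named protein-coding genes under the clusters. Capitals mark CACCC or its reverse complement GGGTG, the core of KLF and SP sites.
Gpr146: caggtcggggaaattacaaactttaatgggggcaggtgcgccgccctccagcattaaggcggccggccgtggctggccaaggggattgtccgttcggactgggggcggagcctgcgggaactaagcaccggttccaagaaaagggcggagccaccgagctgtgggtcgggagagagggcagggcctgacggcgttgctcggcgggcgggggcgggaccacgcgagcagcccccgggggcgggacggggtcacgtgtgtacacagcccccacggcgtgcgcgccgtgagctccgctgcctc
Hook2: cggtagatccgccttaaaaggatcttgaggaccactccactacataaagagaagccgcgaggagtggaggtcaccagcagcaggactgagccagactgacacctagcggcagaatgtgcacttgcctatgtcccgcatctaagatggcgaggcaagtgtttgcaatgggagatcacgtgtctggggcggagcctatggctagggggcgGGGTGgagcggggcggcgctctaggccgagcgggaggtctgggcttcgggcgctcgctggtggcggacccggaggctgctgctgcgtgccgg
Atp5d: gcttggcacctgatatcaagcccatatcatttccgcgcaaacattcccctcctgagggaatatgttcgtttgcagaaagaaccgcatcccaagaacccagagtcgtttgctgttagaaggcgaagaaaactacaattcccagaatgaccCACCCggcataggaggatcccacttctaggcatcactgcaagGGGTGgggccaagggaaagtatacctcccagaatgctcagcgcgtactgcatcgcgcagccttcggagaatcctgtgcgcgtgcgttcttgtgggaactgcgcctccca
Midn: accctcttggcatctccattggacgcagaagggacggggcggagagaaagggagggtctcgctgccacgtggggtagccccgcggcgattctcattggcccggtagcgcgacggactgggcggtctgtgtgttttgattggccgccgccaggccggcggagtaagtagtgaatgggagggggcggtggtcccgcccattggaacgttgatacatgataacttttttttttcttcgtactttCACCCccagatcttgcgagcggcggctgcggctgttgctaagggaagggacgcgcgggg
Cirbp: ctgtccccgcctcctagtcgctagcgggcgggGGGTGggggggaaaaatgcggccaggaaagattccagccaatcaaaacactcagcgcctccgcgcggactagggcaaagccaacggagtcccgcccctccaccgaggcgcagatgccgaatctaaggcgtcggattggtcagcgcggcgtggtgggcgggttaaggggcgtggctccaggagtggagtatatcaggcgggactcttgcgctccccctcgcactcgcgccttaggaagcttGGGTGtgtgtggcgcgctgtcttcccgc
Trim41: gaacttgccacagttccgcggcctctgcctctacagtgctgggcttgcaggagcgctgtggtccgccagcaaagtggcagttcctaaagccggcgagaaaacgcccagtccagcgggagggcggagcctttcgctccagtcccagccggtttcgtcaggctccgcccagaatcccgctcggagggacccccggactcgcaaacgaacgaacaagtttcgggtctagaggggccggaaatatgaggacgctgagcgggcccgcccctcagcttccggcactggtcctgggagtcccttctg

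The CACCC core, searched on both strands, was found in 8 of the 11 windows, against 57.7% of all 32619 RefSeq start windows of the same length. Of the 6 windows printed, those of Gpr146 and Trim41 held none. Atp5d, Midn and Cirbp each had a further window that is not printed. These held 2, 5 and 0 cores, against 2, 1 and 2 in the printed ones, so the marked cores belong to 1 start of each gene. CACGTG, the E-box, was found in 4 of 11, at Gm36462, Gpr146, Hook2 and Midn, against 7.20% of all windows. CCAAT was in 3 of 11 (37.6% of all windows). CCGGAAG, an ETS core, was in 1 of 11 (8.92% of all windows), and TGTGGT, a RUNX core, in 1 of 11 (16.6% of all windows), both in the Trim41 window. The AP-1 site TGACTCA was in 0 of 11 windows, against 5.22% of all. The CRE site TGACGTCA, the C/EBP site TTGCGCAA and the NRF1 core GCGCATGCG were also in 0 of 11, and in 1.80%, 0.184% and 1.75% of all windows. The TATA box, TATAAA, was in 0 of 11 and in 13.7% of all windows. These matches describe letters and not binding, and windows of 1 gene that overlap share letters. The 11 windows were GC-rich, with a median GC content of 63.3% against 53.0% over all windows, and a median CpG ratio of observed to expected of 0.765 against 0.387.

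The gene of miR-6546 lay inside the first Fcgr3 region (chr1:171064591-171064652, - strand), and its mature forms are printed with the seed, bases 2 to 8, in capitals.
mmu-miR-6546-5p: aGGCGCCUcugagcuugugcuugu
mmu-miR-6546-3p: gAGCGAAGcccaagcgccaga
The gene of miR-339 lay in the span of the 3110082I17Rik and Gpr146 cluster, 2272 bp from the nearest clustered region and outside it.

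Small-RNA genes lay under clustered regions more often than under other distal regions. Of the 49 clustered regions 15 (30.6%) overlapped a small-RNA gene, all tRNA or snRNA genes, compared with 78 of 2724 (2.86%) outside clusters. Among the regions outside, the share was 5.08% in pairs (12 of 236) and 2.65% for single regions (66 of 2488). The 15 comprised 5 regions over tRNA genes and 10 over genes annotated as snRNA, against 57 and 15 of the 2724 outside, where further types such as snoRNA genes made up the rest. An annotated RNA start with no small-RNA gene was covered by 7 of 49 clustered regions (14.3%) and by 711 of 2724 outside (26.1%), and neither by 27 (55.1%) and 1935 (71.0%). No test was made of these shares, since chaining picks regions that lie near each other and small-RNA genes lie in arrays, so the 15 are not independent. The count moved with the gap: 29 of 116 clustered regions overlapped a small-RNA gene at gaps up to 25 kb, and 0 of 3 at gaps up to 5 kb. It was between 11 and 17 when each library in turn was left out, 17 of them without 0h replicate 2.

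**Figure D2:**
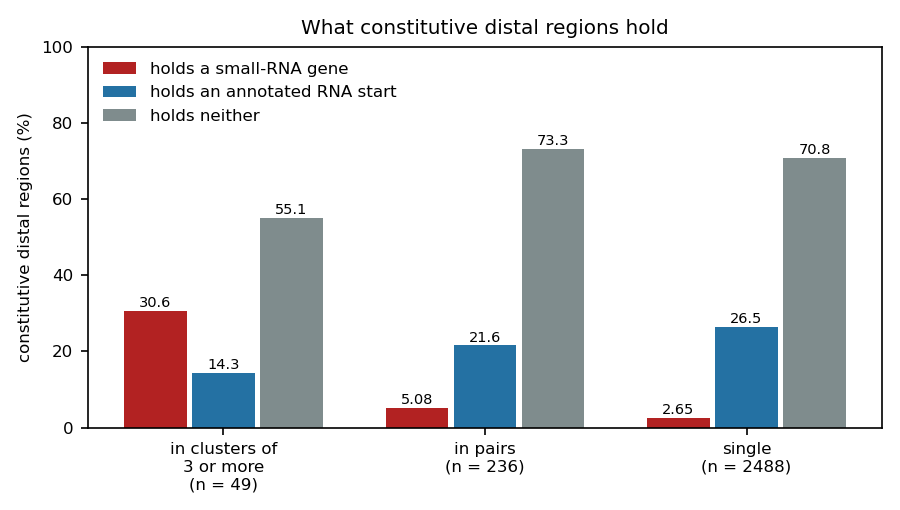
Percentage of constitutive distal regions (y axis) that overlap a small-RNA gene, an annotated RNA start without one, or neither, for 49 clustered regions, 236 in pairs and 2488 single regions. The small-RNA share is 30.6% in clusters, 5.08% in pairs and 2.65% among single regions.

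Library facts bear on every value that follows. The lists held from 14822 to 21895 peaks. The background of a library was taken as the lowest local background solved from the deposited folds and p-values, divided by the smallest peak width. It was 1.501 tags per kb in 0h replicate 2 (smallest width 125 bp), against 2.23 to 2.67 in the other libraries (146 to 185 bp). That library stood apart also in its median peak width, 282 bp against 370 to 460 bp elsewhere, and counts of regions and clusters against 0h are given with both 0h libraries and with either left out. Of 11 marker genes of leukaemic myeloid cells, 9 to 11 had a peak inside them or up to 10 kb away in each library. Of markers of other cells with such a peak, there were 8 to 12 of 18 for T and NK cells, 7 to 11 of 16 for B cells, 4 to 5 of 15 for erythroid cells, 9 to 12 of 16 for megakaryocytes and 2 to 11 of 16 for stroma and endothelium. In sorted bulk cells, a site open in fewer cells and a site less open in each cell cannot be told apart. No lists were identical.

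Strength was compared as a percentile, the rank of a region's fold enrichment among the 9168 regions present in all lists, within each list, from 0 to 100. Fold enrichment is the authors' ratio of tags at the summit to the local background, and its scale depends on the depth of a library. The deposited folds and p-values gave back whole-number pile-ups for the peaks of all 49 regions in all 8 lists; these ran from 5 to 135 tags with a median of 24.5, so counting error alone was 44.7% at the lowest and 20.2% at the median.

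By fold enrichment, clustered regions differed from other distal regions by less than the spread between libraries. Their median percentile was 20.7 and 43.8 (0h), 29.8 and 33.0 (6h), 35.1 and 25.5 (12h) and 28.1 and 23.0 (24h) for replicates 1 and 2. Outside clusters it was 32.3 and 37.4, 33.2 and 31.7, 36.3 and 33.6, and 33.4 and 30.2 in the same order. The difference was negative in 6 of 8 libraries and averaged -3.62 percentile points ± 5.78 (SD over 8 libraries), so its mean was smaller than its spread. Regions at gene ends were stronger than either, with medians of 56.7 to 59.1. Ranked by the deposited −log10 p instead of fold, clustered regions stood 10.6 percentile points above the others, the opposite sign.

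Both the tags at the summit and the local background were higher in clustered regions than in other distal regions. The median pile-up at the summit was 16 to 38 tags over the libraries in clustered regions and 12 to 24 tags outside, higher in clustered regions in 8 of 8 libraries. The median local background at the summit was 0.884 to 2.70 tags in clustered regions and 0.532 to 1.58 tags outside, also higher in clustered regions in 8 of 8. Peaks in clustered regions were wider in 8 of 8 libraries, by 86.8 bp ± 40.8 (SD over 8 libraries), with medians of 430 to 651 bp against 334 to 557 bp outside. Gene-end regions were close to clustered regions in pile-up, 15 to 34 tags, and in width, 397 to 669 bp. Their local background was 0.638 to 2.11 tags. Distal regions in pairs had medians of 13 to 25.5 tags, 346 to 571 bp and a background of 0.612 to 1.94 tags. Among regions with neither annotation, clustered peaks were wider in some libraries only, as given below. Clustered and other distal regions met the same presence rule, and the values are descriptions because presence of a peak chose the regions.

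Peaks over small-RNA genes and over annotated starts were wider than peaks over neither in each of the 8 libraries, by their medians. The 15 regions over small-RNA genes had median peak widths of 613 to 987 bp, compared with 505 to 854 bp for the 78 such regions outside clusters. The 7 over annotated starts had medians of 513 to 783 bp, against 400 to 678 bp for the 711 outside. The 27 with neither had 348 to 534 bp, against 303 to 508 bp for the 1935 outside. The 27 were narrower in 0h replicate 1 (507 against 508 bp) and 6h replicate 1 (367 against 385 bp). They were also narrower in 12h replicate 2 (420 against 447 bp), and wider in the other libraries. The 27 had median percentiles of 22.6 to 43.3 over the libraries, near the 25.7 to 34.6 of the 1935 such regions outside clusters. The small-RNA regions outside clusters also ranked low, with medians of 17.8 to 35.3.

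**Figure D3:**
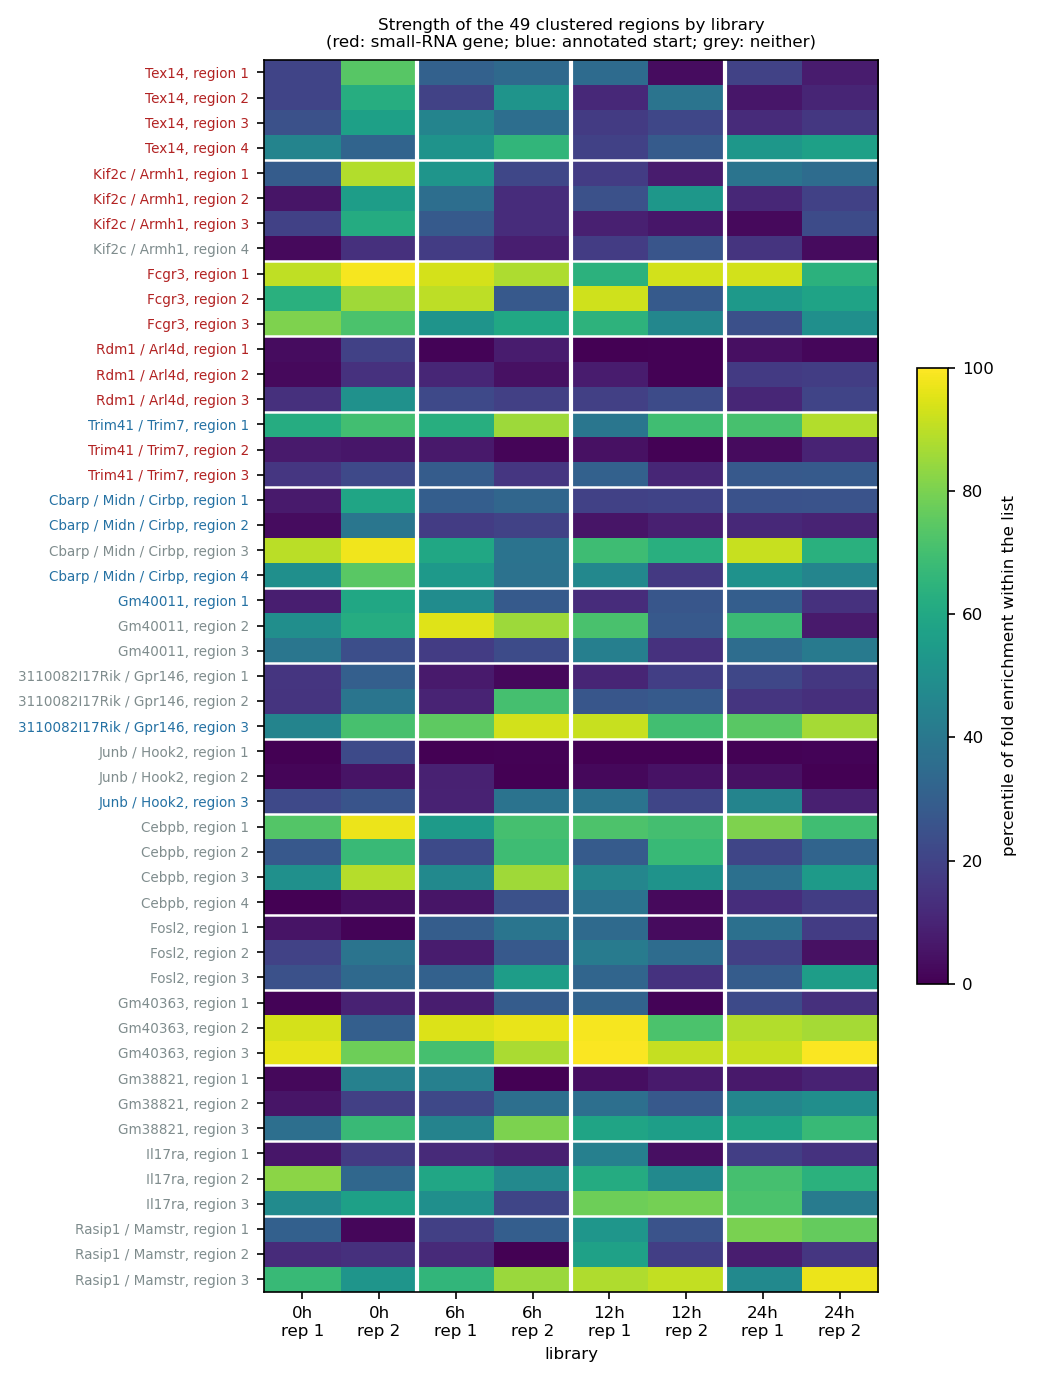
Percentile of fold enrichment of each of the 49 clustered regions (rows, grouped by cluster; label colours give what the region holds) in each library (columns, by time). Dark rows, such as the first Junb and Hook2 region at 0.0491 to 22.4, sit beside bright rows such as the first Fcgr3 region at 64.2 to 98.7, and columns of 1 time often differ.

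The Fcgr3 cluster (chr1:171063919-171082497) was the strongest on average, with a mean percentile of 68.1 over its regions and libraries. Fcgr3 encodes a low-affinity receptor for IgG on myeloid cells, but the 3 regions lay over an array of 15 tRNA genes in the span. These stood in 3 groups of 5 in the same gene order, spaced 7628 and 7614 bp apart, and 7 of the 15 genes overlapped a clustered region. The first region (chr1:171063919-171066021) covered 4 tRNA genes (n-TEctc5, n-TGtcc1, n-TDgtc3 and n-TLcag6) and had folds of 13.8 and 16.3 (0h), 14.8 and 14.0 (6h), 12.1 and 14.6 (12h) and 14.4 and 11.5 (24h). It ranked at or above the 64.2nd percentile in every library, and the times overlapped. The third region (chr1:171081309-171082497) ranked at 80.6 and 71.8 (0h), 51.8 and 59.7 (6h), 64.5 and 46.2 (12h) and 24.5 and 50.0 (24h). Every later library lay below both 0h libraries there, and this is 1 of 2 regions with the same direction at all 3 times. How reads that match several near-identical copies were placed is not given in the sources used here, so values at tRNA and snRNA arrays are uncertain as to the copy.

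At Tex14, a gene of germ-cell bridges, each of the 4 regions overlapped 1 U3 gene: Rnu3b1, Rnu3b3, Rnu3b4 and Rnu3b2 along the chromosome. Their median summits lay 88.0 to 212.5 bp from the U3 gene. The first region ranked at 19.8 and 7.60 at 24h, against 20.7 and 74.2 at 0h. The second ranked at 5.97 and 10.2 at 24h, against 20.3 and 62.5 at 0h, and the third at 12.4 and 16.1 at 24h, against 24.8 and 57.0 at 0h. These 3 regions were lower at 24h with no overlap, and in each 0h replicate 2 was well above 0h replicate 1. The fourth region (chr11:87471461-87472745) went the other way, with 53.0 and 57.0 at 24h against 45.2 and 32.1 at 0h, although both its 12h libraries, at 19.2 and 28.6, lay below 0h.

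Kif2c encodes a microtubule-depolymerising kinesin and Armh1 an armadillo-like protein; the cluster at these genes (chr4:117189653-117219073) held snRNA genes Gm25099, Gm23143 and Gm23287 in 3 of its 4 regions. Its first region ranked at 29.2 and 88.4 (0h), 52.3 and 21.1 (6h), 17.6 and 7.73 (12h) and 38.5 and 35.3 (24h). The 2 libraries of 0h were far apart there, and only the 12h pair stood clear of both. At Rdm1 and Arl4d, a DNA-repair-related gene and a small GTPase, the 3 regions overlapped Gm24950, Gm23971 and Rnu2-10, a U2 gene, and were weak throughout. The first region starts at 101641937 and only touches the edge of Gm24950, which ends at 101641938. Its summits lay 134 to 295 bp from that gene. The region over Rnu2-10 (chr11:101657966-101659543) was the strongest of the 3 in 7 of 8 lists and ranked at 10.8 to 50.5.

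At Trim41 and Trim7, both ubiquitin ligases, the strongest region in all 8 lists covered the Trim41 start printed above. It ranked at 70.8 and 88.6 at 24h, against 61.9 and 69.6 at 0h, with no overlap. The region over n-TGacc1 was the weakest in all times, between 0.780 and 9.77. The region over n-TKctt10 and n-TAtgc9 ranked at 28.1 and 28.3 at 24h, against 15.7 and 22.2 at 0h.

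Summits at small-RNA genes lay beside the genes more often than in them. Only 4 of the 120 summits of the 15 regions fell inside a small-RNA gene, and 12 of the 15 regions had no summit inside in any list. The median distance from summit to gene was 16.5 to 360.5 bp, with a median of 99.0 bp over the 15. The shortest were at the tRNA regions of Trim7, at 16.5 and 24.0 bp, and the longest at Gm25099.

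In clusters with annotated starts, the starts of protein-coding genes lay inside the outer ends of the gene, since regions under 1 kb from an end were left out by the rule. In the cluster at Cbarp, Midn and Cirbp (chr10:80141327-80168534), 3 of 4 regions covered starts of Atp5d, Midn and Cirbp. Cbarp encodes a regulator of calcium channels, and midnolin takes part in degradation of nuclear proteins. The strongest region in all 8 lists was the one without a start, 1.63 kb from an end of Midn (chr10:80159572-80160314). Its percentile was 89.5 and 97.7 (0h), 59.5 and 38.1 (6h), 69.0 and 63.2 (12h) and 91.6 and 63.3 (24h). Both libraries of 6h and of 12h lay below both of 0h, while 24h overlapped 0h. The Midn start region was broad, at 1841 bp, and ranked only at 3.23 to 39.1, with pile-ups of 23 to 53 tags.

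The Gpr146 start region (chr5:139380318-139381029) was the strongest of its cluster in all 8 lists. It ranked at 45.2 and 71.1 (0h), 75.2 and 93.1 (6h), 91.8 and 69.8 (12h) and 74.3 and 86.6 (24h). The 6h and the 24h libraries lay above both 0h libraries, and the 12h pair overlapped them. The other 2 regions of the cluster, inside 3110082I17Rik, stayed at or below 38.8 in all libraries except for a value of 70.7 in 6h replicate 2.

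Junb encodes a subunit of the AP-1 transcription factor, and its cluster with Hook2 (chr8:84979703-84991016) had the lowest mean percentile of all, 10.9. The first region, 1.19 kb from an end of Junb, ranked at 0.0818 and 22.4 at 0h and below 1 in each of the other 6 libraries. Its folds were 3.87 to 7.25, yet its pile-ups were 17 to 28 tags, about the median of all clustered regions. The local background at its summits was 1.48 to 6.10 tags, lowest in 0h replicate 2, while the median over clustered regions was 0.884 to 2.70 tags. The Hook2 start region was the strongest in all 8 lists, at 8.78 to 45.1. At Gm40011 (chr2:173061699-173084011), the first region covered the starts of Gm36462 and Gm36417, and the second, with no annotation, was the strongest in 7 of 8 lists and ranked from 7.10 to 95.1.

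In the 6 clusters with neither annotation, the strongest regions lay near Gm40363 (chr6:47739762-47758341). Its second region ranked at 30.4 to 98.7 and the third at 70.5 to 99.5, and the second was at or above 71.6 in every library but 0h replicate 2. Their folds reached 17.1 and 18.9 in 12h replicate 1. Rny1 and Rny3, genes of Y RNAs, lay within 50 kb of this cluster and outside its span. The span held 3 other regions called in 3, 6 and 7 of the 8 lists.

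Cebpb encodes C/EBP beta, a transcription factor of myeloid differentiation and of emergency granulopoiesis. Its 4 regions (chr2:167753760-167775746) lay 63.6 to 85.0 kb from the gene, and the last of them was the farthest from a gene end of all 49. The first (chr2:167753760-167754639) was the strongest in 7 of 8 lists, with percentiles of 73.3 and 97.1 (0h), 54.4 and 70.4 (6h), 72.0 and 70.0 (12h) and 80.6 and 69.5 (24h). The fourth, inside the lncRNA gene Gm32287, was weak, at 0.125 and 3.58 at 0h, and its 6h libraries, at 5.49 and 24.9, and 24h libraries, at 13.2 and 18.04, lay above these. The middle regions overlapped between times.

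Fosl2, another AP-1 gene, had 3 regions 1.25 to 24.0 kb from its nearer end (chr5:32112290-32136141). The farthest region (chr5:32112290-32112896) had only 5 to 17 tags at its summit and ranked at 36.8 and 17.9 at 24h, against 5.39 and 1.11 at 0h. The region between ranked at 18.8 and 4.58 at 24h, against 19.7 and 38.6 at 0h, so these neighbours differed from 0h in opposite directions. Il17ra encodes the receptor chain for interleukin 17A, and its 3 regions lay inside the gene (chr6:120466664-120479649). The second ranked at 33.4 to 82.7 and the third at 20.9 to 79.1, and neither 24h pair was clear of 0h. At 12h the third ranked at 77.9 and 79.1, against 48.1 and 56.9 at 0h, higher with no overlap.

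Gm38821 had the shortest cluster, about 44.3 to 51.8 kb from the gene end. Its second region (chr6:51172728-51173531) ranked at 5.67 and 18.9 (0h), 21.6 and 36.5 (6h), 36.7 and 27.9 (12h) and 45.7 and 49.6 (24h). All 6 later libraries lay above both 0h libraries, the other case of the same direction at all 3 times. Its pile-ups were 14 to 47 tags.

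Rasip1, a Ras-interacting protein of vessels, and Mamstr, a coactivator of MEF2, had the cluster with the largest increase at 24h (chr7:45628500-45644041). The first region, 1.38 kb from an end of Rasip1 (chr7:45628500-45629227), ranked at 79.9 and 76.4 at 24h, against 30.7 and 1.86 at 0h, the largest difference of any clustered region at 61.9 points. It rested on 19 and 22 tags at 24h, against 19 and 6 tags at 0h. The third, inside Mamstr, was the strongest in 7 of 8 lists, from 47.4 to 97.1.

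Each later time was set against the same pair of 0h libraries, so the 3 comparisons are not independent. A region was counted higher when both libraries of a time ranked above both 0h libraries, and lower in the reverse case, so that such a call also holds against either 0h library alone. At 6h, 7 of 49 clustered regions were higher (background over all 9168 regions 16.3%) and 6 lower (background 15.7%). At 12h, 5 were higher (background 15.9%) and 11 lower (background 16.9%). At 24h, 10 were higher (background 17%) and 6 lower (background 16.4%). As shares of the 49, the higher and lower counts were 14.3% and 12.2% (6h), 10.2% and 22.4% (12h) and 20.4% and 12.2% (24h). Without 0h replicate 2 the counts were 23 and 10 at 6h (backgrounds 35.7% and 33.2%), 19 and 12 at 12h (34.0% and 34.0%), and 22 and 8 at 24h (36.0% and 33.3%). Without 0h replicate 1 they were 10 and 26 at 6h (backgrounds 34.6% and 36.3%), 10 and 29 at 12h (34.6% and 37.3%), and 14 and 26 at 24h (35.3% and 36.8%). Higher calls outnumbered lower ones at all 3 times without 0h replicate 2, and lower calls outnumbered higher ones at all 3 times without 0h replicate 1, so the balance of directions depended on which 0h library was used.

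With both 0h libraries, the small-RNA regions made up most of the lower calls at 12h and 24h, and without 0h replicate 1 they were 13 of 29 and 11 of 26. At 6h they did not: 1 of the 15 was higher and 1 lower (6.67% each, backgrounds 16.3% and 15.7%). Their 6h counts were 7 higher and 2 lower without 0h replicate 2 (backgrounds 35.7% and 33.2%). Without 0h replicate 1 these were 1 and 11 (backgrounds 34.6% and 36.3%). At 12h, 0 of 15 were higher and 7 lower (46.7%, background 16.9%), and at 24h 3 were higher and 5 lower (33.3%, background 16.4%). Among the 27 regions with neither annotation, 5 were higher (18.5%, background 15.9%) and 3 lower (11.1%, background 16.9%) at 12h. At 24h, 5 of the 27 were higher (18.5%, background 17%) and 1 lower (3.7%, background 16.4%). Without 0h replicate 2 the small-RNA counts were 2 higher and 7 lower at 12h, and 5 higher and 5 lower at 24h, against backgrounds of 34.0% each at 12h and 36.0% and 33.3% at 24h. As shares of the 15 these were 13.3% and 46.7% at 12h, and 33.3% each at 24h. The counts of the 27 were then 13 higher and 4 lower at 12h (48.1% and 14.8%), and 12 higher and 3 lower at 24h (44.4% and 11.1%), against the same backgrounds. Without 0h replicate 1 the small-RNA counts were 0 higher and 13 lower at 12h (0% and 86.7%), and 3 higher and 11 lower at 24h (20% and 73.3%). Those of the 27 were 10 and 11 at 12h (37% and 40.7%), and 9 and 11 at 24h (33.3% and 40.7%). The backgrounds were 34.6% and 37.3% at 12h, and 35.3% and 36.8% at 24h, so the 27 were near them. The library 0h replicate 2 gave the highest percentile of the 8 for 9 of the 15 small-RNA regions and for 19 of all 49 (38.8%), compared with 19.7% of regions outside clusters. The median percentile of the 15 was 20.3 and 57.0 (0h), 31.0 and 21.1 (6h), 18.9 and 21.4 (12h) and 17.0 and 20.7 (24h). For the 78 small-RNA regions outside clusters, it was 35.3 in 0h replicate 2 and 17.8 to 25.3 in the other libraries. A higher median in 0h replicate 2 was therefore not particular to the clustered small-RNA regions. The part of either 0h library in these calls was not tested beyond leaving it out.

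**Figure D4:**
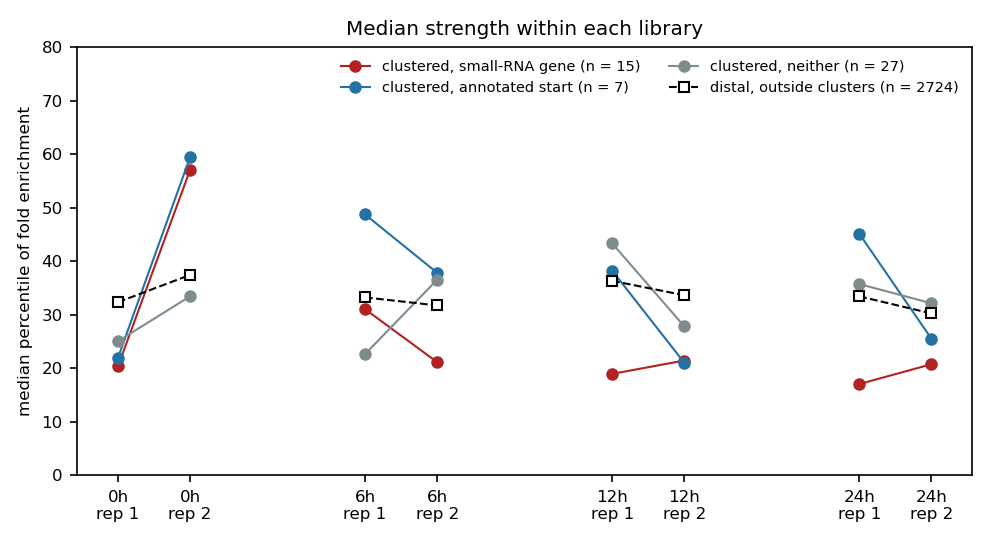
Median percentile of fold enrichment (y axis) in each library (x axis, replicates of 1 time joined) for 15 small-RNA regions, 7 start regions and 27 other regions in clusters, and 2724 distal regions outside. The small-RNA median is 57.0 in 0h replicate 2 and 17.0 to 31.0 in the other 7 libraries, while the regions outside stay between 30.2 and 37.4. The 78 small-RNA regions outside, not drawn apart, had 35.3 in 0h replicate 2 and 17.8 to 25.3 in the other libraries.

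Averaged over its regions, a cluster differed between 24h and 0h without overlap in 6 of 15 cases (40%), while single regions did so in 33.4% of all 9168 (the background, both directions together). Means were higher at 24h at Rasip1 and Mamstr (45.0 and 63.1 at 24h, against 36.8 and 22.7 at 0h), Gm40363 (67.5 and 66.5, against 63.6 and 39.3), Trim41 and Trim7 (34.0 and 42.2, against 28.2 and 32.6) and Fosl2 (28.2 and 26.0, against 16.7 and 24.7). They were lower at Fcgr3 (57.2 and 57.4 at 24h, against 78.2 and 85.4 at 0h) and at Tex14 (22.8 and 22.7, against 27.8 and 56.4). Both clusters that were lower consist of small-RNA regions, and the 4 that were higher hold 2 such regions, both at Trim7. The gap between the nearest 24h and 0h libraries was 1.32 points at Fosl2 and 1.33 at Trim41 and Trim7, the narrowest of the 6. The other 9 clusters overlapped. The Trim41 and Trim7 cluster did not keep 1 direction over the times. Its means were 32.85 and 34.23 at 6h, above both 0h libraries, and 25.01 and 26.9 at 12h, below both. Without 0h replicate 2, 9 clusters were higher and 2 lower at 24h (backgrounds 36.0% and 33.3%), and without 0h replicate 1, 5 were higher and 10 lower (backgrounds 35.3% and 36.8%). With both 0h libraries, 1 cluster mean (6.67%) was clear of 0h at 6h and 5 (33.3%) at 12h, compared with 32% and 32.8% of single regions. The 1 at 6h was Trim41 and Trim7, higher. At 12h, Rasip1 and Mamstr was higher, while Fcgr3, Tex14, Trim41 and Trim7, and Cbarp, Midn and Cirbp were lower. Without 0h replicate 1, 3 were higher and 8 lower at 6h (backgrounds 34.6% and 36.3%), and 3 and 11 at 12h (34.6% and 37.3%). Without 0h replicate 2 they were 7 and 1 at 6h (35.7% and 33.2%), and 8 and 4 at 12h (34% each). The background is of single regions, and none was made for means over neighbouring regions.

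**Figure D5:**
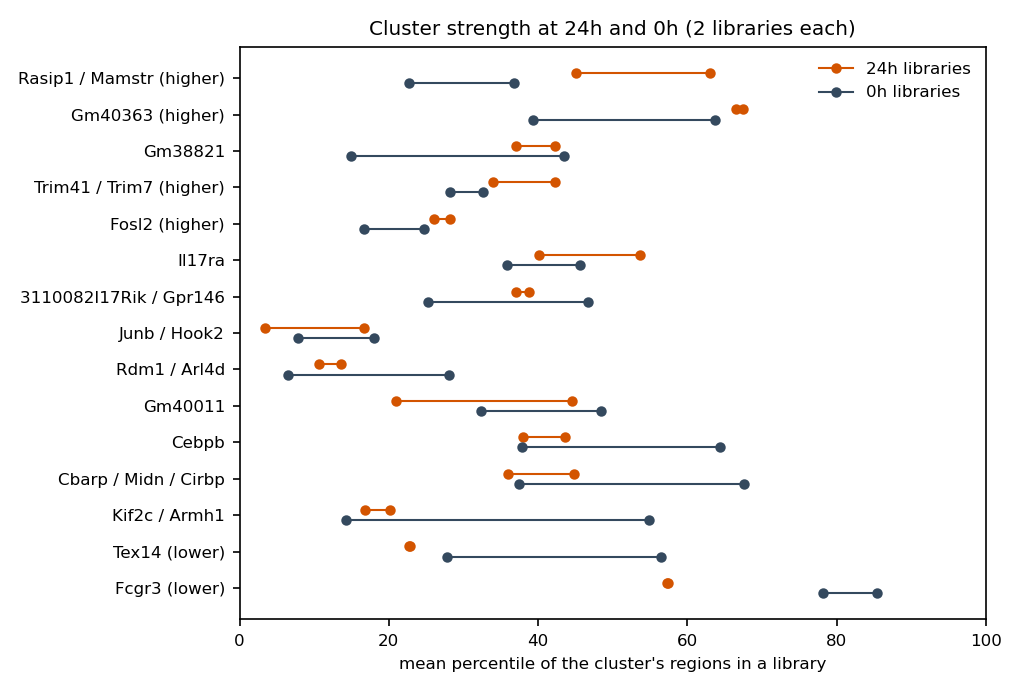
Mean percentile of each cluster's regions (x axis) in the 24h libraries (orange, upper points) and the 0h libraries (dark, lower points), 2 libraries each, with rows sorted by the difference. Rasip1 and Mamstr stand at the top with 24h above 0h by 24.3, and Fcgr3 at the bottom with 24h below 0h (difference -24.5).

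Gains and losses inside the spans could be read in 7 regions only, too few to compare with the background shares. Besides the 49, the spans held 7 regions not called in all lists, 3 of them called in 1 list. At 24h 1 of the 7 was gained, with a peak in both 24h libraries and neither 0h library (background over 23552 regions 1.56%), and 0 were lost (background 6.16%). At 6h 0 were gained (2.56%) and 0 lost (3.26%), and at 12h 0 were gained (5.6%) and 0 lost (2.02%). Without 0h replicate 2, 1 of the 7 was lost at each time (backgrounds 21.8%, 16.8% and 29.2%) and 1 gained at 24h (2.52%). Without 0h replicate 1, 1 was gained at each time (10.8%, 17.6% and 7.4%) and 0 were lost. The gained region with both 0h libraries (chr6:47744508-47744727) lay in the Gm40363 cluster, with folds of 5.27 and 4.68 at 24h and of 3.67 in 12h replicate 1.

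Within a cluster, the leading region was taken as the one with the highest mean percentile over the same 8 lists. That choice favours it in the counts, and no like count was made outside clusters. In 5 clusters the leading region was the strongest in all 8 lists, and in 12 it led in at least 6 lists. A single region's percentile varied over the 8 libraries by a median of 44.6 points (8.99 to 88.0), much like the 45.4 points outside clusters. In every library 18 of the 49 ranked below the 50th percentile and 3 above it.

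Listed genes of leukaemia and blood biology were nearest to regions of 4 of the 15 clusters. Of 424 matched genes in 20 lists, 4 were nearest to a clustered region: Cebpb among the myeloid factors, Il17ra among the growth factor and cytokine receptors, and Fosl2 and Junb among the immediate early genes. By comparison, 146 of the 424 were nearest to any constitutive distal region, and over all 21631 protein-coding genes the numbers were 23 and 2386. The list of the MLL-AF9 programme had 0 of 30 genes at a cluster and 14 at a constitutive distal region. The list of KLF and SP factors had 0 of 21 and 6.

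Some regions lay near the limits of the rule. The widest gaps inside a cluster were 12.4 kb at Tex14 and 12.2 kb at Fosl2, and the narrowest that kept a chain from forming or growing were 12.7 kb between regions at Prss16 and H2ac12 and 13.1 kb between regions at Kdm5a and Il17ra. The shortest distance to a gene end among the 49 was 1.05 kb, at Trim41, and the largest just under 1 kb beside a chain was 0.749 kb, at Ankrd13d. Regions in clusters lay 6.89 kb from a gene end in the median, against 10.3 kb outside.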

How the data were processed

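Reads were processed by the authors with BWA, SAMtools and MACS2 on mm10, per the submitters' processing notes. Not given in the sources used here are versions, read shifting, duplicate handling and the placement of reads with several matches. Each library came as its own list of peaks. The fold that the authors deposited for a peak is the ratio of its summit tags to the local background, each with 1 added. The authors also deposited, per peak, −log10 of the p-value and of the q-value. The integer score in the deposited lists was not used. Peak values serve only to describe and rank peaks within a list.

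Fold and −log10 p were solved for whole-number pile-ups and local backgrounds (Poisson, tolerance 0.001), since total reads were not used here. Regions were merged, chained and ranked in Python 3.11.15 with pandas 2.3.3, numpy 2.4.6 and scipy 1.17.1, and figures used matplotlib 3.10.9; merging, chaining and calls were checked on simulated peaks. Genes, starts, miRNAs and sequences are RefSeq GRCm38.p6; a region holds a small-RNA gene when it overlaps by at least 1 bp a gene of tRNA, snRNA, snoRNA, Y RNA, scRNA, rRNA, RNase P or RNase MRP RNA. Groups and replicates came from the labels. The regions and the 20 gene lists were chosen with earlier results of these data known. The naming rule took the 10 clusters with most regions, the 5 next by mean percentile, those with the largest 24h differences and those at listed genes, which came to all 15. No test was made, since presence in the lists chose the regions and 2 libraries stand at each time. Alternatives were other gaps and distances, a stricter q, lists of equal length, a cover of at least 50%, −log10 p in place of fold, each library left out and the replicate block.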

Additional observations from a re-analysis of the deposited data

How the results depend on the processing

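Values are given in the order clustered regions, clusters, those holding a small-RNA gene, and counts higher and lower than 0h at 6h, 12h and 24h, where the main values are 49, 15, 15, 7 and 6, 5 and 11, and 10 and 6. The smallest sets came from a gap of at most 5 kb and from a cover of at least 50%, and the largest from a gap of at most 25 kb. Gaps of at most 5 kb gave 3, 1 and 0, then 1 and 0 at each time, with 0 other regions gained at 24h, and the percentile difference turned to 2.72. Gaps of at most 25 kb gave 116, 34 and 29, then 18 and 12, 13 and 26, and 24 and 19, with other regions in spans numbering 1 gained at 6h, 1 gained and 2 lost at 12h, and 3 lost at 24h. A cover of at least 50% gave 3, 1 and 0, then 0 and 1, 0 and 2, and 0 and 0, and 0 gained at 24h. A distance of at least 2.5 kb gave 20, 6 and 7, then 4 and 2, 2 and 4, and 5 and 3, and 0 gained at 24h. Lists of equal length gave 29 regions in 9 clusters, with 3, 1 and 3 higher at 6h, 12h and 24h, and 0 gained at 24h. Peaks with −log10 q of at least 5 gave 2 higher at 12h, 5 higher at 24h and 0 gained at 24h. Ranking by −log10 p turned the percentile difference to 10.6 and gave 5 lower at 12h. The causes were not tested.

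Leaving out each library in turn gave 49 to 55 regions in 15 to 17 clusters, of which 11 to 17 held a small-RNA gene, and a percentile difference of -4.23 to 0.179. Counts higher ran from 6 to 24 at 6h, 5 to 20 at 12h and 10 to 23 at 24h, and counts lower from 5 to 26, 10 to 30 and 5 to 26 in the same order, by construction larger where 1 library stands for a time. The direction turned with the 0h library left out: with the set chosen anew, it was 11 higher and 26 lower, 10 and 30, and 14 and 26 without 0h replicate 1, against 24 and 10, 19 and 13, and 23 and 9 without 0h replicate 2. Other regions gained numbered 0 to 1, 0 to 2 and 1 to 3, and lost 0 to 1 at each time. Under the replicate block, which sets same-numbered libraries against each other, 11 were higher and 11 lower at 6h, 9 higher at 12h and 10 lower at 24h; the numbers pair the samples by nothing but the number. Chosen after seeing the data, leaving out regions with a small-RNA gene or an RNA start gave 19 regions in 6 clusters, and leaving out the small-RNA regions left 1 lower at 24h. Of 257 values under alternatives, 167 stayed within a margin of the main value. The margin was a fixed ratio for counts and 5.78 points, the SD over 8 libraries, for the percentile difference. Counts of 0 that stayed 0 are among the 167, and so is the change of sign of the percentile difference to 0.179. Depth also limits single regions, where the lowest pile-up was 5 tags.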
